A study of Homo sapiens with 4 samples.

Results

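A readthrough gene is an annotated gene whose transcripts run from a gene into its neighbour on the same strand, and it carries the joined symbols of both parents. The 96 readthrough genes described here were chosen by their symbols and counts. A row was taken where its Ensembl identifier matched a hyphenated symbol of which both parts are themselves symbols in the same table, and where at least 1 count was present in any of the 4 libraries. Of the 20323 genes in the table, 484 had a hyphenated symbol and 114 met the first condition. Counts therefore chose the members, and detection as such is a description. At the threshold, 18 of the 114 were at 0 in every library, 0 lay above 0 but under 1 count, and 8 members had a highest count between 1 and 5. The 96 members have 190 parent genes and form 94 loci once members that share a parent are joined. At least 1 count was present in 86 and 83 members in the NK scramble libraries and in 88 and 84 in the NK shADAR1 libraries, and in all 4 libraries for 72.

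NK-92 is an interleukin 2-dependent suspension line of human natural killer cells. Lentivirus delivered a scrambled hairpin to NK scramble cells, and to NK shADAR1 cells a hairpin against ADAR1, the enzyme that converts adenosine to inosine in double-stranded RNA. Both groups had 2 libraries of oligo(dT)-selected mRNA and otherwise shared medium, interleukin 2 and transduction. The knockdown is a reduction in a transduced population, not a deletion. The labels number the knockdown libraries 1 and 2, which were read as replicates although the study also uses such numbers for hairpins. The study names NK shADAR1-2 as the knockdown cells that were sequenced. The libraries are called independent biological replicates, with no word on what they share, and p-values measure only the spread between these libraries.

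The libraries held 37881704 to 39960491 estimated counts. ADAR was at 655 and 682 CPM (counts scaled to library size, with TMM factors) in NK scramble, against 575 and 482 CPM in NK shADAR1, so the groups did not overlap, with a log2 fold change of -0.34 (SE 0.20) and an unadjusted p of 0.127 in the edgeR test. All 12 NK markers exceeded 1 FPKM (fragments scaled to transcript length and library size) in every library, with a summed level of 4132 to 4644 FPKM in NK scramble and 4398 to 4713 FPKM in NK shADAR1. Of 6 T cell markers, CD3E and TRAC carried nearly all of a summed level of 500.1 to 611.5 FPKM and 581.6 to 693.8 FPKM, while CD8B was at 0 in every library and CD3D, CD3G and CD4 were under 1 FPKM. The CD16 gene FCGR3A, whose protein NK-92 is known to lack, was at 4.53 to 6.38 FPKM. The summed level of 3 B cell markers was at most 2.38 FPKM, that of 3 monocyte markers at most 0.658 FPKM, and that of HBB and HBA1 at most 0.052 FPKM. The part of these levels in the results below was not tested.

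Transcription of most protein-coding genes ends after a polyadenylation signal, where the nascent RNA is cut, a poly(A) tail is added and RNA polymerase II is released. When the signal of a gene is passed over, the polymerase can reach the next gene on the same strand, and splicing can then join an exon of the upstream gene to an exon of the downstream gene. Such transcripts may encode a fusion of both proteins, may keep only the upstream reading frame, or may hold an early stop codon that makes them targets of nonsense-mediated decay. Since their exons are those of the parents, short reads tell them from the parents only where they cross the joining splice or a stretch that neither parent has.

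Of the 96 readthrough genes, 93 had both parents in GENCODE release 29 on GRCh38. The build of the deposited values is not given in the sources used here, so positions below are those of GENCODE and only describe the annotation. In 92 of the 93, the readthrough gene lay on the strand of both parents with the first named parent upstream. The exception was BORCS7-ASMT, whose second named parent ASMT lies on another chromosome and is no neighbour of BORCS7. In 12 cases the parents overlapped or, for BORCS7-ASMT, lay on different chromosomes. Otherwise the gap between them had a median of 6613 bases and ranged from 138 to 102752 bases. A median of 97.8% of the exonic bases of a readthrough gene were also exonic in a parent, and 37 readthrough genes had no base of their own. The range was 12.9% to 100%, with BORCS7-ASMT the lowest, followed by TIMM23B-AGAP6 at 18.4%. A splice joining an exon of the upstream parent to one of the downstream parent was annotated for 83. In the annotation, 63 had a protein-coding transcript and 52 had a transcript labelled for nonsense-mediated decay. Of the 92 with an annotated reading frame, at least 10% of the longest one matched each parent in frame for 42, the upstream parent alone for 43 and the downstream parent alone for 7.

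The joining splices were part of the sequence that set readthrough genes apart, beside stretches that neither parent has, such as 6280 bases at FPGT-TNNI3K. In 82 of them, the 30 bases around the splice were found in transcripts of the readthrough gene and in no other of 206694 annotated transcripts. The sequences of the loci to which the results return are given here from GENCODE release 29, 5′ to 3′ on the transcript, with 15 bases of the upstream parent in lower case and 15 bases of the downstream parent in capitals. The positions of the last upstream and the first downstream base follow below them.
KLRC4-KLRK1: aatgaggaagaaatgGAATCCTTTGTGCAT
IFNAR2-IL10RB: ctggccaggaatcagCATTGGGAATGGTAC
HNRNPUL2-BSCL2: caatacaatcgggatGGACCCTCCATTTTC
ISY1-RAB43: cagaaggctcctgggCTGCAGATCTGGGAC
RPL36A-HNRNPH2: gataagaagagaaagCTACACCAAAATTGC
SYNJ2BP-COX16: tttgccctcaccatgATGGATCCTGAGCTT
PEDS1-UBE2V1: tctgcatcaccacagGAGTAAAAGTCCCTC
RPS10-NUDT3: accgaattccagtttGTGCTACTCGTGAGC
The KLRC4-KLRK1 splice runs from base 10407636 of chromosome 12 to base 10388875 on the minus strand, over 18760 bases, and is shared by 4 annotated transcripts. That of IFNAR2-IL10RB runs from base 33252830 of chromosome 21 to base 33268394 on the plus strand. The HNRNPUL2-BSCL2 splice joins base 62715500 of chromosome 11 to base 62707324, and that of ISY1-RAB43 joins base 129130088 of chromosome 3 to base 129095169, both on the minus strand. RPL36A-HNRNPH2 is joined from base 101395457 of chromosome X to base 101411936 on the plus strand. The other 3 are on minus strands as well, with SYNJ2BP-COX16 joined from base 70373033 of chromosome 14 to base 70329236, PEDS1-UBE2V1 from base 50127975 of chromosome 20 to base 50096820, and RPS10-NUDT3 from base 34418369 of chromosome 6 over 76396 bases to base 34341972. All of these splices lie within an annotated reading frame except that of KLRC4-KLRK1. A frame that crosses the splice need not keep the frame of the downstream parent. The longest annotated frames of IFNAR2-IL10RB, HNRNPUL2-BSCL2, ISY1-RAB43 and RPL36A-HNRNPH2 held 0 bases in frame with that parent. The only annotated transcript of HNRNPUL2-BSCL2 is labelled for nonsense-mediated decay.

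The deposited counts are estimates and need not be whole numbers, as when reads are divided between rows. In the readthrough rows, 329 of 341 values above 0, or 96.5%, were not whole. In the parent rows, 568 of 688 values (82.6%) were not whole, against 9167 of 55086 values (16.6%) in all other rows. A value was taken as whole within a tolerance of 0.000001. The plot of these shares sets the 3 kinds of row side by side. The division of a locus between its rows thus rests on an estimate in nearly every readthrough gene, and how the estimate was made is not given in the sources used here.

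**Figure D1:**
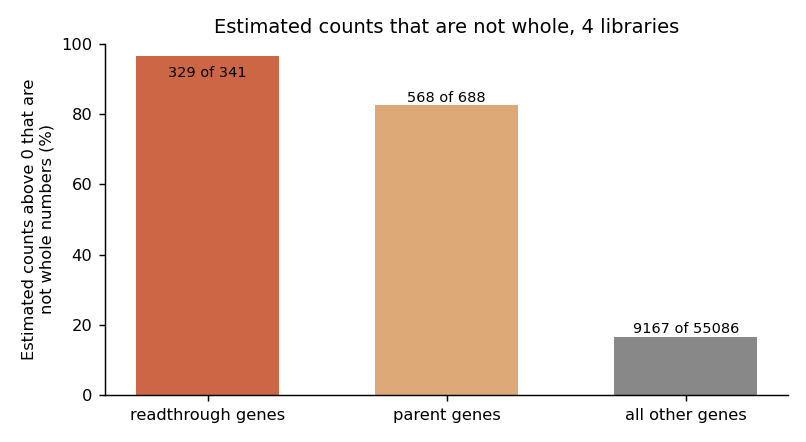
Share of estimated counts above 0 that are not whole numbers (vertical axis, percent, from 0) in readthrough rows, parent rows and all other rows of the table, over the 4 libraries together. The bars stand at 96.5%, 82.6% and 16.6%, and the text on each bar gives the number of values.

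Readthrough genes were low. Together they held 0.0762% of all estimated counts, against 0.931% in their parents. The median readthrough gene had a mean of 66.8 counts over the 4 libraries, against 900.8 for the upstream and 350.4 for the downstream parents. On the FPKM scale, which divides by transcript length, the medians were 0.663 for readthrough genes, 10.8 for upstream parents and 5.16 for downstream parents. The mean FPKM of a readthrough gene was under both parents for 49 members, between them for 46 and above both for 1, ST20-MTHFS. In 9 members a parent was at 0 in every library. A mean of at least 100 counts was reached by 40 members and a mean of at least 1000 counts by 6.

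**Figure D2:**
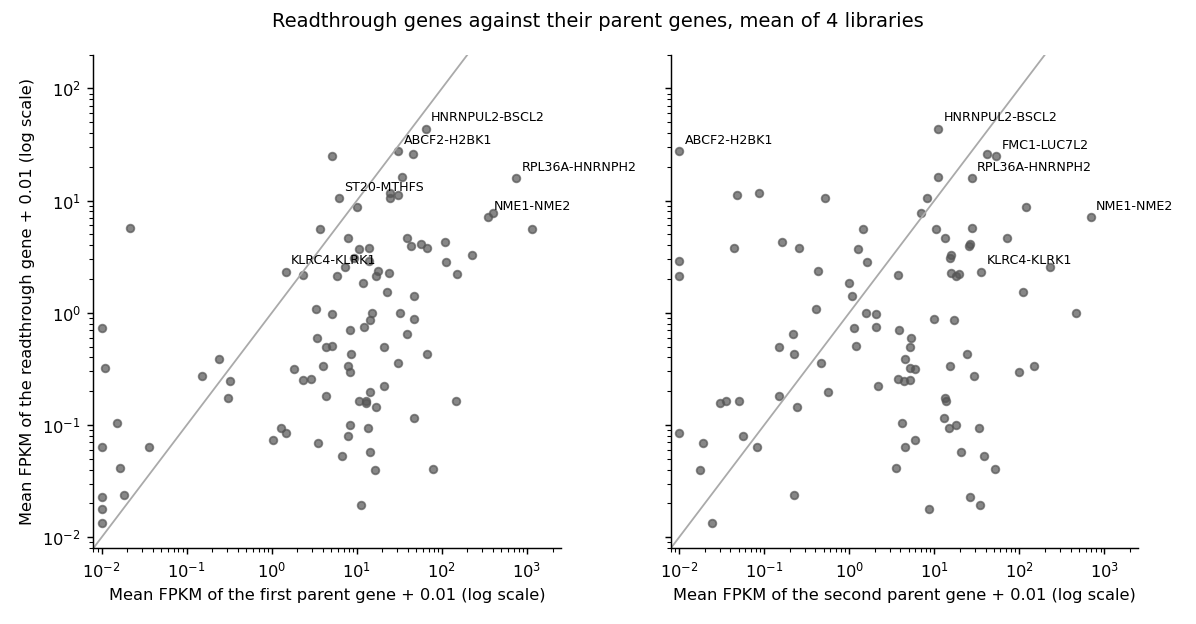
Mean FPKM over 4 libraries of each of the 96 readthrough genes (vertical axis) against the first named parent (left panel) and the second named parent (right panel), each with 0.01 added and on log scales. The line marks equal levels, and most points lie under it, while ST20-MTHFS lies above it on both sides.

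The readthrough gene with the highest mean FPKM was HNRNPUL2-BSCL2, followed by ABCF2-H2BK1, ARPC4-TTLL3, FMC1-LUC7L2, ISY1-RAB43 and RPL36A-HNRNPH2. HNRNPUL2-BSCL2 joins an hnRNP U-like protein gene to the seipin gene of lipid droplets and was at 53.8 and 35.9 FPKM in NK scramble, against 48.5 and 37.2 FPKM in NK shADAR1, beside a mean of 64.3 FPKM for HNRNPUL2 and 11.1 FPKM for BSCL2. ABCF2-H2BK1 was at 29.8, 28.1, 25.2 and 27.9 FPKM in the same order of libraries, close to the mean of 30.6 FPKM of the ATP-binding cassette gene ABCF2, while the histone gene H2BK1 was at 0 in every library. ARPC4-TTLL3 joins a subunit of the actin-nucleating Arp2/3 complex to a tubulin-modifying enzyme, and stood at 24.6, 19.9, 31.9 and 27.2 FPKM. FMC1-LUC7L2, which joins a mitochondrial assembly factor to a splicing factor, was at 22.2, 20.6, 37.2 and 19.0 FPKM, above FMC1 at a mean of 5.06 FPKM and under LUC7L2 at 53.3 FPKM. Replicate 1 of NK shADAR1 was the highest library for the ARPC4-TTLL3 and FMC1-LUC7L2 rows. ISY1-RAB43 joins the gene of a splicing factor to that of a small GTPase and was at 14.7, 17.98, 13.1 and 18.4 FPKM. RPL36A-HNRNPH2 joins the gene of a ribosomal protein to that of an hnRNP and was at 8.95, 8.50, 32.7 and 12.9 FPKM. In both, the longest annotated reading frame held 0 bases in frame with the downstream parent.

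The share of a locus was taken as the estimated counts of the readthrough row over those of the readthrough row and both parents. Its median over the members was 3.06% with all libraries pooled, and 2.76%, 2.32%, 3.46% and 3.12% in NK scramble 1 and 2 and NK shADAR1 1 and 2. The share was under 5% for 55 members, between 5% and 50% for 40 and above 50% for 1. Among members that averaged 10 counts or more, the highest pooled shares were those of ZNF625-ZNF20, ANKHD1-EIF4EBP3, ISY1-RAB43, MSH5-SAPCD1, ST20-MTHFS and MSANTD3-TMEFF1. The zinc finger pair ZNF625-ZNF20 held 71.5% and 1.84% of its locus in NK scramble, against 74.2% and 45.5% in NK shADAR1, with ZNF625 at 0 throughout, so its pooled 52.7% hid a library in which the readthrough row was nearly empty. ANKHD1-EIF4EBP3, which joins an ankyrin repeat gene to a gene for a translational repressor that binds eIF4E, held 51.2%, 47.0%, 47.0% and 37.2%, and EIF4EBP3 itself was under 0.2 FPKM in every library. ISY1-RAB43 held 39.9% and 38.9% in the libraries numbered 1 and 50.98% and 51.8% in those numbered 2. MSH5-SAPCD1, whose first parent is a meiotic MutS homologue, held 43.2%, 34.5%, 40.1% and 34.0%. For ST20-MTHFS, whose second parent is an enzyme of folate metabolism, the shares were 39.9%, 34.8%, 33.6% and 42.8%. MSANTD3-TMEFF1 held 41.8%, 33.8%, 30.5% and 36.0% while TMEFF1 was at 0 in every library.

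**Figure D3:**
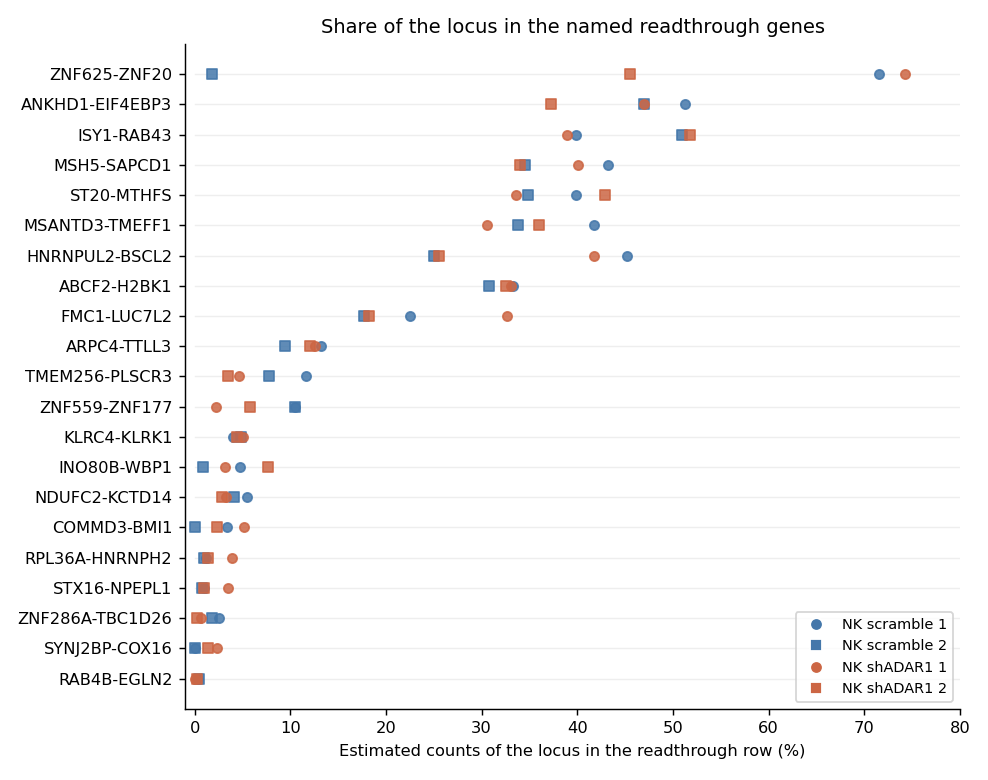
Share of the estimated counts of a locus in its readthrough row (horizontal axis, percent) for the 21 named readthrough genes in each of the 4 libraries. Colours give the group and shapes the replicate number. Circles and squares separate by replicate number and not by group in several genes, ISY1-RAB43, HNRNPUL2-BSCL2, MSH5-SAPCD1 and FMC1-LUC7L2 among them. Those of SYNJ2BP-COX16 and NDUFC2-KCTD14 separate by group and not by replicate number.

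NK shADAR1 was then compared with NK scramble over the whole table with the edgeR quasi-likelihood test. With calls made at an adjusted p under 0.05 together with a fold change of 1.5 or more, 0 of 11810 genes tested (0%) were called, with a smallest adjusted p of 0.9997, so that 0 readthrough genes and 0 parents were called. DESeq2 also called 0 genes, with a smallest adjusted p of 0.146. At an unadjusted p under 0.05 the edgeR test held 293 genes (2.48%), of which 201 (1.7%) were higher and 92 (0.779%) lower in NK shADAR1. The same limit was passed by 6 of the 74 readthrough genes with enough counts to be tested (3 higher and 3 lower), and by 5 of 160 tested parents (4 higher and 1 lower). Without NK scramble 1, NK scramble 2, NK shADAR1 1 and NK shADAR1 2 in turn, 47, 2, 16 and 1 genes were called. An unadjusted p under 0.05 was then found for 13 of 80, 11 of 80, 10 of 79 and 17 of 77 tested readthrough genes, against 3.8%, 4.37%, 1.69% and 5.69% of all genes tested in those fits. With no filter beyond 1 count, 11 of the 96 members passed it, against 2.76% of 15605 genes. With the replicate number as a block, the edgeR test called 13 genes, with a smallest adjusted p of 0.0142. In that fit 15 of 74 readthrough genes (20.3%) had an unadjusted p under 0.05, against 5.77% of all genes. Genes are not independent replicates, so these counts describe the members and lend no support to a change. What lies behind them was not tested. A low row that reaches the filter only in the group where it is high had to differ. This held for 3 tested members, SYNJ2BP-COX16 through NK shADAR1 and ZNF286A-TBC1D26 and RAB4B-EGLN2 through NK scramble, of which SYNJ2BP-COX16 and ZNF286A-TBC1D26 are among the 6. Among all tested genes, 13.3% were higher and 12.6% lower in both NK shADAR1 libraries than in both NK scramble libraries. Among tested readthrough genes these shares were 10.8% (8 genes) and 13.5% (10 genes), near the background. The median log2 fold change was 0.08 over the 74 readthrough genes, with 42 higher and 32 lower, -0.01 over the 160 parents and 0.00 over all genes tested. Because the libraries are bulk RNA, fewer cells with a transcript and less of it per cell cannot be told apart.

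At the KLRC4-KLRK1 locus, the readthrough row and both parents were higher in both NK shADAR1 libraries than in both NK scramble libraries. KLRK1 encodes NKG2D, an activating receptor of NK cells for stress-induced ligands, and KLRC4 encodes a related lectin-like protein of the same gene complex. The readthrough row was at 1.63 and 2.37 CPM in NK scramble, against 3.74 and 2.999 CPM in NK shADAR1, so the groups did not overlap. Its log2 fold change was 0.75 (SE 0.39), with an unadjusted p of 0.0815 and an adjusted p of 1. KLRC4 stood at 0.526 and 0.713 CPM against 2.26 and 1.82 CPM, a log2 fold change of 1.72 (SE 0.48) with an unadjusted p of 0.00485. KLRK1 was at 39.1 and 45.9 CPM against 67.8 and 63.1 CPM, a log2 fold change of 0.62 (SE 0.20) with an unadjusted p of 0.0104. Neither parent passed after adjustment. With the 3 rows summed, the locus was at 41.2 and 49.0 CPM against 73.8 and 67.9 CPM, a log2 fold change of 0.65 (SE 0.20) with an unadjusted p of 0.00831 and an adjusted p of 0.999. The readthrough row held 3.96%, 4.81%, 5.07% and 4.40% of the locus, with no separation between groups.

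SYNJ2BP-COX16 joins a gene of the mitochondrial outer membrane to an assembly factor of cytochrome c oxidase. It was at 0 in both NK scramble libraries and at 0.458 and 0.321 CPM in NK shADAR1, 30.8 estimated counts in sum. Against a floor of 3 counts over the NK scramble group it was at least 10.7-fold higher in NK shADAR1, a bound that takes the 30.8 counts as given and covers neither their counting error nor the division of reads between rows. The row was tested only because it passed the filter in NK shADAR1, so its values are a description. SYNJ2BP was lower in both NK shADAR1 libraries, at 12.1 and 15.8 CPM against 11.8 and 11.4 CPM, as were 12.6% of all genes tested. COX16 overlapped between the groups, at 9.57 and 9.98 CPM against 7.96 and 12.0 CPM. The summed locus was at 21.6 and 25.8 CPM against 20.3 and 23.8 CPM, and its log2 difference of -0.11 (SE 0.21) had the opposite sign of the readthrough row.

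RPL36A-HNRNPH2 and STX16-NPEPL1 were the other 2 readthrough genes that were higher at an unadjusted p under 0.05. RPL36A-HNRNPH2 was at 4.98 and 4.86 CPM in NK scramble, against 17.7 and 7.47 CPM in NK shADAR1, a log2 fold change of 1.35 (SE 0.37) with an unadjusted p of 0.00436. Its parents RPL36A and HNRNPH2 had log2 fold changes of 0.07 (SE 0.22) and 0.16 (SE 0.24), and the summed locus one of 0.10 (SE 0.22). STX16-NPEPL1, which joins the gene of a trans-Golgi syntaxin to an aminopeptidase-like gene, was at 2.03 and 1.68 CPM against 6.05 and 2.01 CPM. The replicate 2 of NK shADAR1 lay just under replicate 1 of NK scramble, so the groups overlapped, and the unadjusted p was 0.0498 with a log2 fold change of 1.12 (SE 0.50). In both genes replicate 1 of NK shADAR1 was the highest library. Without it, the log2 fold change was 0.60 for RPL36A-HNRNPH2 and 0.12 for STX16-NPEPL1.

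The 3 that were lower were ZNF286A-TBC1D26, ZNF559-ZNF177 and NDUFC2-KCTD14. ZNF286A-TBC1D26 joins a zinc finger gene to a TBC domain gene and was at 0.376 and 0.356 CPM in NK scramble, against 0.102 and 0.0268 CPM in NK shADAR1. It reached the filter only in NK scramble, so its log2 fold change of -2.44 (SE 0.85) is a description. ZNF286A had a log2 difference of -0.10 (SE 0.23), and TBC1D26 had too few counts to be tested. ZNF559-ZNF177 joins a pair of zinc finger genes and was at 1.18 and 0.993 CPM against 0.331 and 0.562 CPM, a log2 fold change of -1.28 (SE 0.55) with an unadjusted p of 0.0428. Both of its parents had positive differences, 0.31 (SE 0.30) for ZNF559 and 0.30 (SE 0.43) for ZNF177. NDUFC2-KCTD14 joins the gene of a respiratory complex I subunit to one of the KCTD family. It was at 3.76 and 3.49 CPM against 1.65 and 2.33 CPM. Its log2 fold change was -0.86 (SE 0.38) with an unadjusted p of 0.0448, beside -0.19 (SE 0.25) for NDUFC2 and -1.28 (SE 0.71) for KCTD14. KCTD14 had 15 and 13 estimated counts in NK scramble, against 5 and 6 in NK shADAR1. It thus reached the filter only in NK scramble, and its value is a description. In these 3 genes both NK shADAR1 libraries lay under both NK scramble libraries, and none passed after adjustment. With rows summed, 2 of 92 tested loci passed an unadjusted p of 0.05 (2.17%, against 2.55% of all rows of that fit), KLRC4-KLRK1 and FXYD6-FXYD2, a pair of ion transport regulators whose readthrough row was at 0 in 3 libraries.

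**Figure D4:**
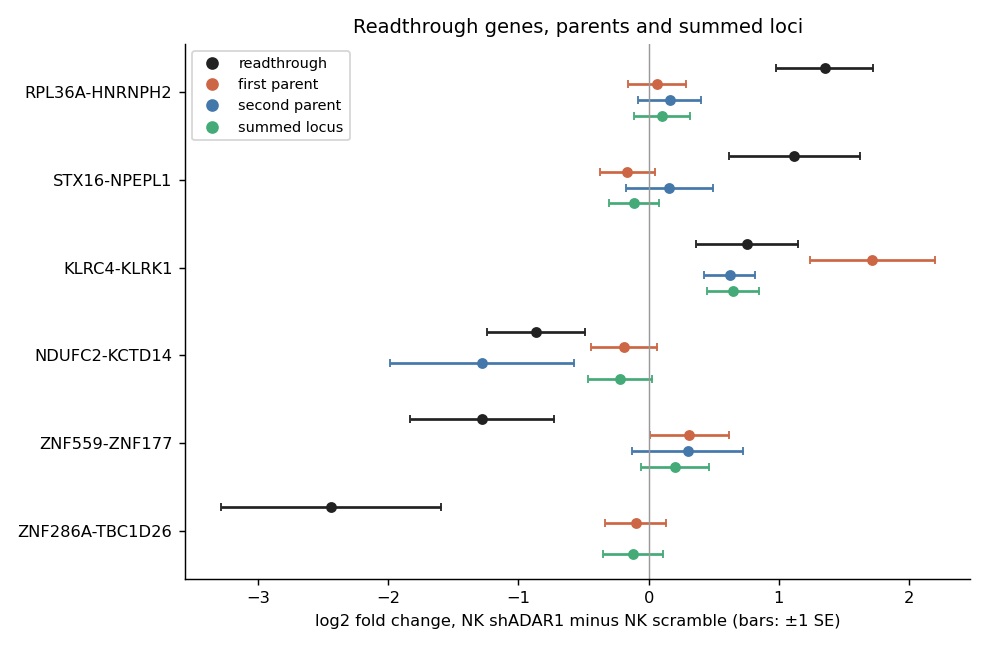
Log2 fold change of NK shADAR1 over NK scramble (horizontal axis) with bars of 1 SE for 6 readthrough genes, their tested parents and the summed locus, from edgeR fits on 2 libraries per group. The readthrough rows lie outside the range of their tested parents except in KLRC4-KLRK1 and NDUFC2-KCTD14. In NDUFC2-KCTD14 that range rests on KCTD14, which reached the filter only in NK scramble. The summed loci lie between -0.22 and 0.65, and SYNJ2BP-COX16 is not drawn because it was at 0 in NK scramble.

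The remaining readthrough genes with the largest differences did not pass an unadjusted p of 0.05. COMMD3-BMI1, whose second parent is a Polycomb protein, was at 2.53 and 0.0509 CPM in NK scramble, against 3.92 and 1.74 CPM in NK shADAR1, so the log2 difference of 1.13 (SE 0.98) came with overlapping groups. INO80B-WBP1, whose first parent is a subunit of a chromatin remodelling complex, was at 1.48 and 0.305 CPM against 1.17 and 3.13 CPM, a difference of 1.26 (SE 0.71). RAB4B-EGLN2 joins the gene of a small GTPase to that of an oxygen-sensing prolyl hydroxylase. It stood at 0.351 and 0.382 CPM against 0 and 0.214 CPM, a difference of -1.77 (SE 1.01). TMEM256-PLSCR3, whose second parent is a mitochondrial scramblase, was at 1.40 and 0.636 CPM against 0.534 and 0.348 CPM, a difference of -1.20 (SE 0.60). In TMEM256-PLSCR3 the groups did not overlap, with NK shADAR1 lower, as in 12.6% of all genes tested. The groups of RAB4B-EGLN2 did not overlap either, but that row reached the filter only in NK scramble, so its values are a description. The 6 most highly expressed readthrough genes, apart from RPL36A-HNRNPH2, had differences of -0.13 (SE 0.20) for ABCF2-H2BK1, -0.08 (SE 0.23) for HNRNPUL2-BSCL2, -0.05 (SE 0.24) for ISY1-RAB43, 0.37 (SE 0.27) for FMC1-LUC7L2 and 0.38 (SE 0.21) for ARPC4-TTLL3.

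A readthrough row and its parents can divide the same reads, so their differences were set side by side at the 57 members for which all 3 rows were tested. The median size of the log2 fold change was 0.31 for the readthrough row, 0.17 for the upstream parent, 0.16 for the downstream parent and 0.14 over all genes tested. The readthrough row differed by more than both parents at 31 of the 57. Its sign was opposite to that of the upstream parent at 35 and to that of the downstream parent at 30. Across these 57 members, which share their libraries and, within a locus, their reads, Spearman's rho between readthrough and parent log2 fold changes was -0.10 for the upstream and 0.13 for the downstream parent, against 0.13 between the parents. Genes are not independent replicates, and these values are a description. The readthrough rows also had fewer counts than the parents, and the part of this in the larger differences was not tested.

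The 2 libraries of a group differed more in readthrough rows than in other rows. The rows were not matched by count, and only 6 readthrough genes averaged 1000 counts or more. The part of count level in this spread was not tested. Among rows that averaged 100 counts or more, replicates 1 and 2 of NK scramble were at least 2-fold apart in 6 of 40 readthrough genes (15%), 6 of 135 parents (4.44%) and 137 of 9876 genes in all (1.39%). In NK shADAR1 they were at least 2-fold apart in 12 of the readthrough genes (30%), 4 of the parents (2.96%) and 182 of all genes (1.84%). The median size of the log2 difference between replicates was 0.34 and 0.54 in readthrough genes in the 2 groups, 0.23 and 0.30 in parents and 0.23 and 0.23 over all genes. Some of these differences went with the replicate number. A fit added after the data were seen tested the replicate number with the group as a term, and called 336 of 11810 genes (2.85%) by the same limits, among them 6 of 74 readthrough genes and 12 of 160 parents. The libraries numbered 2 lay above both numbered 1 in 24.3% of all genes tested, in 17.6% of readthrough genes (13) and in 38.8% of parents (62), and below them in 22.3%, 29.7% (22) and 18.1% (29). The labels do not say what the number stands for, and what the numbers share was not tested.

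The 6 readthrough genes called between replicate numbers were PEDS1-UBE2V1, COMMD3-BMI1, PPAN-P2RY11, IFNAR2-IL10RB, ATP6V1G2-DDX39B and RPS10-NUDT3, and all but COMMD3-BMI1 are named here after their values were seen. PEDS1-UBE2V1, which joins a plasmalogen-forming desaturase to a ubiquitin-conjugating enzyme variant, was at 6.66 and 8.47 CPM in the libraries numbered 1 and at 0.687 and 0.562 CPM in those numbered 2. Its log2 difference of number 2 over number 1 was -3.58 (SE 0.35, adjusted p 3.6e-05 by edgeR), while that of PEDS1 was -0.35 (SE 0.18) and that of UBE2V1 0.40 (SE 0.17). PPAN-P2RY11, which joins a ribosome biogenesis factor to a purinergic receptor, was at 14.1 and 17.97 CPM against 5.29 and 5.89 CPM, a difference of -1.51 (SE 0.22), and P2RY11 also fell, by 0.76 on the log2 scale (SE 0.18). IFNAR2-IL10RB joins the genes of subunits of the receptors for type I interferon and interleukin 10. It was at 13 and 22.98 CPM against 8.27 and 7.82 CPM, a difference of -1.11 (SE 0.24). Its parents IFNAR2 and IL10RB had positive differences of 0.31 (SE 0.17) and 0.21 (SE 0.18).

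RPS10-NUDT3 and ATP6V1G2-DDX39B went the other way. RPS10-NUDT3, which joins a ribosomal protein to a phosphohydrolase, was at 3.33 and 1.78 CPM in the libraries numbered 1 and at 9.75 and 11.6 CPM in those numbered 2, a log2 difference of 2.10 (SE 0.30). Its parents had differences of 0.14 (SE 0.18) for RPS10 and 0.28 (SE 0.16) for NUDT3. ATP6V1G2-DDX39B joins the gene of a proton pump subunit to that of an RNA helicase of mRNA export. It was at 3.58 and 2.09 CPM against 7.48 and 7.15 CPM, a difference of 1.41 (SE 0.29). At the readthrough gene with the highest FPKM, the upstream parent differed by replicate number, and its readthrough row had a value of the opposite sign. HNRNPUL2 was at 244 and 251 CPM in the libraries numbered 1 and 425 and 430 CPM in those numbered 2, a difference of 0.79 (SE 0.16, adjusted p 0.0118 by edgeR), while HNRNPUL2-BSCL2 was at 213 and 187 CPM against 146 and 154 CPM, a difference of -0.41 (SE 0.17, adjusted p 0.225). ISY1-RAB43 was at 71.0 and 61.6 CPM against 89.0 and 92.7 CPM, with RAB43 at 37.8 and 46.3 CPM against 19.5 and 22.3 CPM. Summed over its 3 rows, the ISY1-RAB43 locus was at 178 and 158 CPM in the libraries numbered 1 and at 175 and 179 CPM in those numbered 2, so at this locus the rows differed where the sum overlapped.

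**Figure D5:**
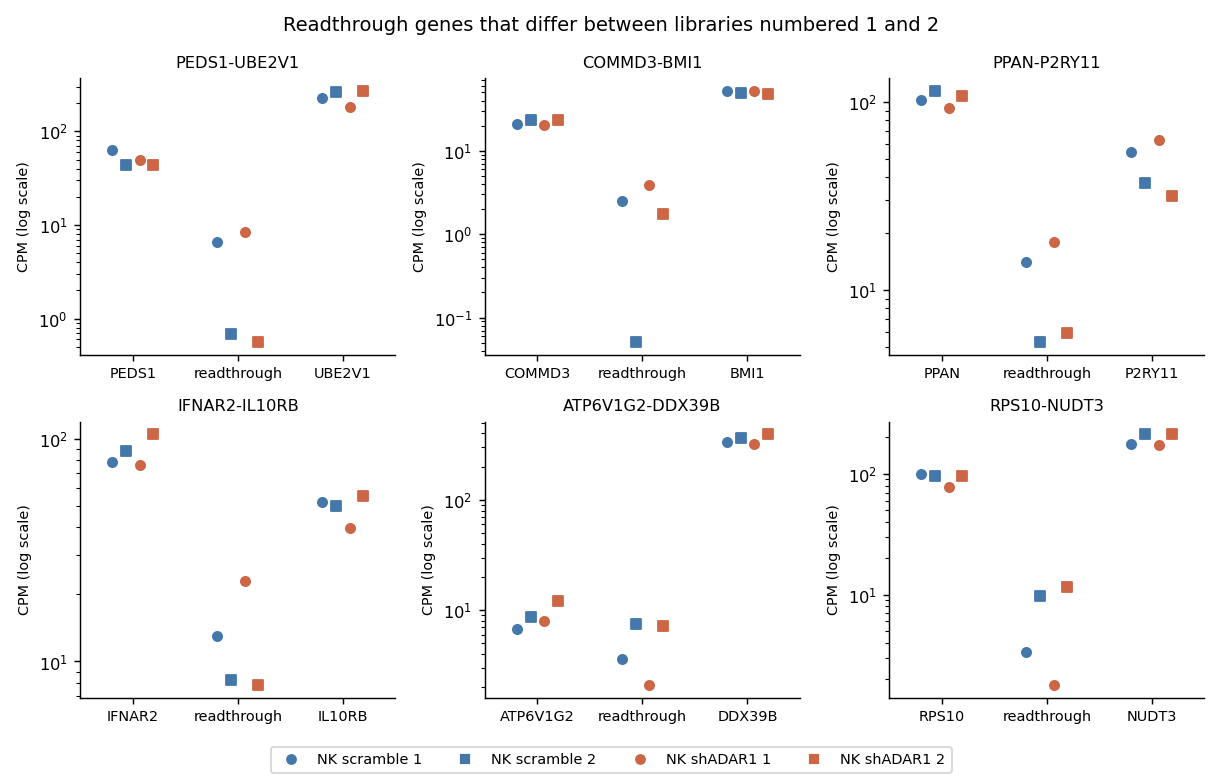
CPM (vertical axis, log scale) of the 6 readthrough genes that differ between libraries numbered 1 (circles) and 2 (squares) and of their parents, with colours for the group. In each panel the readthrough row separates circles from squares, as for PEDS1-UBE2V1 at 6.66 and 8.47 CPM against 0.687 and 0.562 CPM.

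Factors that end transcription or remove faulty transcripts were read from lists of 23 cleavage and polyadenylation factors, 34 termination factors and 25 factors of nonsense-mediated decay, of which 23, 34 and 24 were tested. With a fold change of 1.5 or more beside an unadjusted p under 0.05, a limit passed by 1.8% of all genes tested, 0 factors were higher and 0 lower in any list, and 0 passed an unadjusted p of 0.05 alone. The median log2 fold change was 0.04 for cleavage and polyadenylation with 16 factors higher and 7 lower, 0.01 for termination with 19 and 15, and -0.03 for nonsense-mediated decay with 10 and 14. PPP1CA, a phosphatase of the cleavage complex and the most abundant factor of its list, was at 299 and 310.4 CPM in NK scramble, against 327 and 309.9 CPM in NK shADAR1. SRRT, which links the RNA cap to termination, was at 272 and 235 CPM against 271 and 209 CPM, and RNPS1, of the exon junction complex, at 484 and 417 CPM against 369 and 422 CPM. Their log2 differences were 0.06 (SE 0.19), -0.08 (SE 0.21) and -0.19 (SE 0.20).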

How the data were processed

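Oligo(dT)-selected mRNA of 4 NK-92 libraries was sequenced on an Illumina NovaSeq 6000. The submitters' processing notes name fastp 0.18.0, and the aligner, counting program and genome build are not given in the sources used here. Values deposited by the authors are estimated counts, with no scaling, and FPKM, scaled to transcript length and library size. The members, lists and tests were chosen with earlier results of these data known. Estimated counts were rounded to whole numbers, and edgeR 4.0.16 in R 4.3.3 filtered them (filterByExpr, minimum count 10), applied TMM factors and ran its quasi-likelihood test, adjusted by Benjamini-Hochberg over 11810 genes. Calls combined an adjusted p under 0.05 with a fold change of 1.5 or more. The SE is the size of the log2 fold change over the square root of the F statistic. CPM use TMM-scaled library sizes, and 0.5 CPM was added before log2 only for differences between replicates.

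Named genes were KLRC4-KLRK1, SYNJ2BP-COX16, the 6 highest by FPKM, the 6 highest by share of the locus among those with a mean of at least 10 counts, the 5 largest rises and 5 largest falls, those at an unadjusted p under 0.05, their parents, ADAR and the most abundant factor of each list. Alternatives were RLE and upper quartile scaling, no filter, unrounded counts, DESeq2 1.42.0, the replicate number as a block, rows summed per locus, other shares and each library left out. Annotation came from GENCODE release 29, which holds 20171 of the 20323 identifiers, and symbols matched 20301. On simulated counts for the comparison of NK shADAR1 with NK scramble (11810 genes drawn, 11693 tested), 94 of 100 genes with a 4-fold change and 36 of 100 with a 2-fold change were called by edgeR, beside 10 false calls. The draws gave every gene the same biological coefficient of variation (spread beyond counting error) of 0.201. They held no effect of replicate number and no division of reads. Readthrough rows varied more between replicates than other rows, which were not matched by count, so these rates need not hold for readthrough rows. No exact permutation test was run, since its smallest two-sided p with these 4 libraries is 0.333.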

Additional observations from a re-analysis of the deposited data

How the results depend on the processing

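Low rows, 2 libraries per group and an estimated division of reads limit these values, and their parts in the spread were not separated. Under RLE and upper quartile scaling, unrounded counts and DESeq2, 0 genes were called, and all 34 named genes with a fit kept their direction. With rows summed per locus 0 genes were called as well. With no filter, 11 of 96 readthrough genes had an unadjusted p under 0.05, against 2.76% of all genes. With the replicate number as a block, 13 genes were called, and 15 of 74 readthrough genes (20.3%) had an unadjusted p under 0.05, against 5.77% of all genes in that fit. The deviations of same-numbered libraries from their group means correlated at r = 0.36 over 11810 genes. The numbers are not said to pair the libraries, and the block reversed MSH5-SAPCD1 to 0.0014 on the log2 scale. The cause of these changes was not tested.

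Leaving out a library in turn gave 1 to 47 called genes and 10 to 17 readthrough genes at an unadjusted p under 0.05, beside 1.69% to 5.69% of all genes in those fits. The count of 47 came without NK scramble replicate 1, with COMMD3-BMI1, ZNF625-ZNF20 (both at 0.0509 CPM in the NK scramble library that was left) and RPL36A-HNRNPH2 (log2 fold change 1.37, adjusted p 0.0449) among them. A lone library was taken to vary like the other group. Without NK scramble replicate 2, NK shADAR1 replicate 1 and NK shADAR1 replicate 2, the counts were 2, 16 and 1. The median log2 fold change of readthrough genes ranged from -0.012, without NK shADAR1 replicate 1, to 0.14, and that of parents from -0.099 to 0.054. The median share of the locus was 2.91% to 3.14%. It was 3.62% from FPKM, 8.60% against the upstream parent alone, 20.0% against the downstream parent alone and 5.22% in members that passed the filter.

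A change of sign when a library was left out was seen for 16 of the 34 named genes with a fit, none of which had an unadjusted p under 0.05. Over the libraries left out, the log2 fold change of these readthrough genes ran from -0.43 to 0.44 for ANKHD1-EIF4EBP3, -0.13 to 0.74 for FMC1-LUC7L2, -0.33 to 0.22 for HNRNPUL2-BSCL2, -0.38 to 0.21 for ISY1-RAB43, -0.35 to 0.026 for MSANTD3-TMEFF1, -0.27 to 0.27 for MSH5-SAPCD1, -0.0003 to 0.34 for ST20-MTHFS and -0.27 to 5.43 for ZNF625-ZNF20. That of these parents ran from -0.30 to 0.30 for COX16, -0.075 to 0.43 for HNRNPH2, -0.57 to 0.11 for NDUFC2, -0.51 to 0.62 for NPEPL1, -0.13 to 0.25 for RPL36A, -0.40 to 0.039 for STX16, -0.29 to 0.11 for ZNF286A and -0.036 to 0.59 for ZNF559.

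With rows summed per locus, the log2 fold change took the other sign at MSANTD3-TMEFF1 (0.023), MSH5-SAPCD1 (0.068), STX16-NPEPL1 (-0.11), SYNJ2BP-COX16 (-0.11), TMEM256-PLSCR3 (0.11) and ZNF559-ZNF177 (0.20).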

Other observations

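The following readthrough genes have a parent known from immune cells, were chosen after their values were seen and are given as values only, beside KLRC4-KLRK1 and IFNAR2-IL10RB above. LY75-CD302, which joins a pair of C-type lectin genes, was at 0.182 and 0.458 FPKM in NK scramble and 1.01 and 0.306 FPKM in NK shADAR1. CKLF-CMTM1, from the chemokine-like factor family, was at 1.41 and 2.37 FPKM against 3.87 and 3.77 FPKM, with a log2 difference of 0.98 (SE 0.47) and an unadjusted p of 0.0614. Its parent CMTM1 was at 0.476 and 1.07 CPM against 3.23 and 1.07 CPM. TMED7-TICAM2, whose second parent is an adaptor of Toll-like receptor signalling, was at 3.80 and 2.996 FPKM against 2.24 and 2.60 FPKM, a log2 difference of -0.49 (SE 0.25) with an unadjusted p of 0.0797, while TICAM2 itself was at 0 in every library. GIMAP1-GIMAP5, which joins GTPases of lymphocyte survival, was at 0.714 and 0 FPKM against 0.296 and 0.305 FPKM, although GIMAP5 had a mean of 148 FPKM. TNFSF12-TNFSF13, which joins a pair of tumour necrosis factor ligands, was at 0.579 and 0 FPKM against 0.088 and 0.073 FPKM. RTEL1-TNFRSF6B, whose second parent is a decoy receptor for FAS ligand, was at 0.637 and 0.671 FPKM against 1.35 and 0.31 FPKM. SPECC1L-ADORA2A, whose second parent is an adenosine receptor, was at 0 and 0.144 FPKM against 0.088 and 0.129 FPKM.

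Some readthrough rows carried reads where a parent row was nearly empty. ARPIN-AP3S2 had a mean of 5.67 FPKM beside 0.0112 FPKM for ARPIN, a regulator of the Arp2/3 complex, and 27.8 FPKM for AP3S2. CFAP298-TCP10L had a mean of 11.3 FPKM beside 30.5 FPKM for CFAP298 and 0.0372 FPKM for TCP10L.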
